A study of Rattus norvegicus with 30 samples.

Results

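Peroxisomal beta-oxidation was followed through 7 genes, Ehhadh, Hsd17b4, Decr2, Ech1, Eci2, Scp2 and Amacr, in cultured rat hepatocytes given the plasticiser diisononyl phthalate (DINP). The members were all probe sets that the platform annotation assigned to 1 of these genes, under its current or an older symbol, which gave 8 probe sets of the 31042 on the array, and 7 of 14217 named genes. Scp2 had 2 probe sets and the other 6 genes had 1 each. All 8 passed the filter on dim probe sets, and their mean log2 values stood between the 89.9th and the 99.4th percentile of all probe sets. A further probe set carried the symbols of both Eci2 and Eci3 and was not used.

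The cells were primary hepatocytes of male Sprague Dawley rats, bought frozen, thawed and grown on collagen under Matrigel, and dosed on the third day of culture. The 6 groups of 5 Affymetrix arrays were DINP at 25 mM for 24 h, DINP at 100 mM for 24 h and vehicle for 24 h, then DINP at 25 mM for 48 h, DINP at 100 mM for 48 h and vehicle for 48 h. The vehicle cultures received 1% DMSO, the solvent of the treated cultures. The labels give the doses in mM, and that unit is kept as written because it could not be checked. The labels name neither the age nor the donor of the cells, so p-values measure the spread between replicate cultures, which may be technical. The cells are a culture of isolated hepatocytes, with no liver tissue or blood flow around them.

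Peroxisomes shorten very-long-chain, branched-chain and dicarboxylic fatty acids in a spiral of 4 reactions: oxidation by an acyl-CoA oxidase, hydration and dehydrogenation by a bifunctional protein, and cleavage by a thiolase. Ehhadh encodes the L-bifunctional protein and Hsd17b4 the D-bifunctional protein, while Decr2, Ech1 and Eci2 reshape the double bonds of unsaturated chains so that they can enter the spiral. Scp2 supplies a thiolase for branched chains, and Amacr turns branched-chain acyl-CoAs into the stereoisomer that the oxidase accepts. In rodent liver many of these genes are known targets of the nuclear receptor PPARα, which phthalates and other peroxisome proliferators activate.

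The stretches of 250 bases before a listed transcription start are shown for 3 genes that spanned the range of the response: Ehhadh with the highest folds, Eci2 near 2-fold and Amacr among the smallest. The sequences are RefSeq's on assembly GRCr8, plus strand, 5′ to 3′, at chr11:92746159-92746408 for Ehhadh, chr17:30075516-30075765 for Eci2 and chr2:61673085-61673334 for Amacr. The annotated gene begins at base 92746409 for Ehhadh, right after its window, and at 61673291 for Amacr, within its window. The Eci2 window lies inside the annotated span of that gene, chr17:30056274-30092169, so the start used is not its outermost one. Matches given for Eci2 belong to that inner start. Capitals mark a nuclear receptor half-site with the letters AGGTCA on either strand. They also mark the CCAAT box, and the GC box with the letters GGGCGG, on either strand.
Ehhadh: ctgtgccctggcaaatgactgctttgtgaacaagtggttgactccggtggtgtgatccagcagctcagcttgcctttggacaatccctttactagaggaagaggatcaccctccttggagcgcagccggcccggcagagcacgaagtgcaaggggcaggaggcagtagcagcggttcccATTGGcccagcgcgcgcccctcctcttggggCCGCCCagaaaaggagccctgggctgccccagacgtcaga
Eci2: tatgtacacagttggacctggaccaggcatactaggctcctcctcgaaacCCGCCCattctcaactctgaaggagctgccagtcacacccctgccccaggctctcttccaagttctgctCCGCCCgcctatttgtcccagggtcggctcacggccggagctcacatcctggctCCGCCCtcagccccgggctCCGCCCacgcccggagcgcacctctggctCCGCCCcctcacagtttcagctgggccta
Amacr: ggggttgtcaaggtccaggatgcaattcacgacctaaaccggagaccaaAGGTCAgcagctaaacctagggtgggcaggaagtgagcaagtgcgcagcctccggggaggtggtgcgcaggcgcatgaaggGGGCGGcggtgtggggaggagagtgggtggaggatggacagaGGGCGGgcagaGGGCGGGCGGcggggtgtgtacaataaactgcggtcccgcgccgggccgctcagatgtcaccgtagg
Windows from 250 bases before to 50 bases after a listed start were found for 6 of the 7 genes. The GC box was present in all 6, with 5 matches in Eci2, 4 in Amacr (2 of them overlapping), 2 each in Hsd17b4 and Scp2, and 1 each in Decr2 and Ehhadh, against 33.1% of 33469 RefSeq promoter windows of the same length. The half-site occurred once in Amacr, Eci2 and Hsd17b4 and in no other of the 6, against 16.2% of all windows, and the match in Eci2 lay after the start. CCAAT occurred once in Ehhadh and Decr2, against 37.5% of all windows. The full direct repeat of half-sites with 1 base between them (AGGTCANAGGTCA) was in 0 of the 6 and in 0.0538% of all windows, and TATAAA was in 0 of the 6 and in 14.2%. These are letter matches in a short window and say nothing of binding.

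DINP raised all 7 genes at both doses and both times. At 25 mM and 24 h, 7 of 7 stood higher and 0 lower than the vehicle of that time, where 7.87% of 10604 tested genes were called higher. The same count of 7 of 7 held at 100 mM and 24 h (7.54% of all genes), at 25 mM and 48 h (9.78%) and at 100 mM and 48 h (8.69%). The median log2 difference of the 7 genes was 1.03, 0.99, 0.99 and 1.01 in these comparisons in turn, against -0.03, -0.03, -0.03 and -0.06 over all tested genes. The 5 treated arrays lay wholly above the 5 vehicle arrays for 7 of 7 genes at both doses at 24 h, as they did for 6.39% of all genes at 25 mM and 6.57% at 100 mM. At 48 h they did so for 6 of 7 genes at each dose, against 6.27% of all genes at 25 mM and 6.51% at 100 mM, with Amacr the exception. Calls are adjusted p-values below 0.05 from limma, Benjamini-Hochberg adjusted over all 18625 tested probe sets. Both doses of a time share 1 vehicle group, so the comparisons of a time are not independent. In these bulk samples a change in RNA per cell and a change in the share of hepatocytes cannot be told apart.

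**Figure D1:**
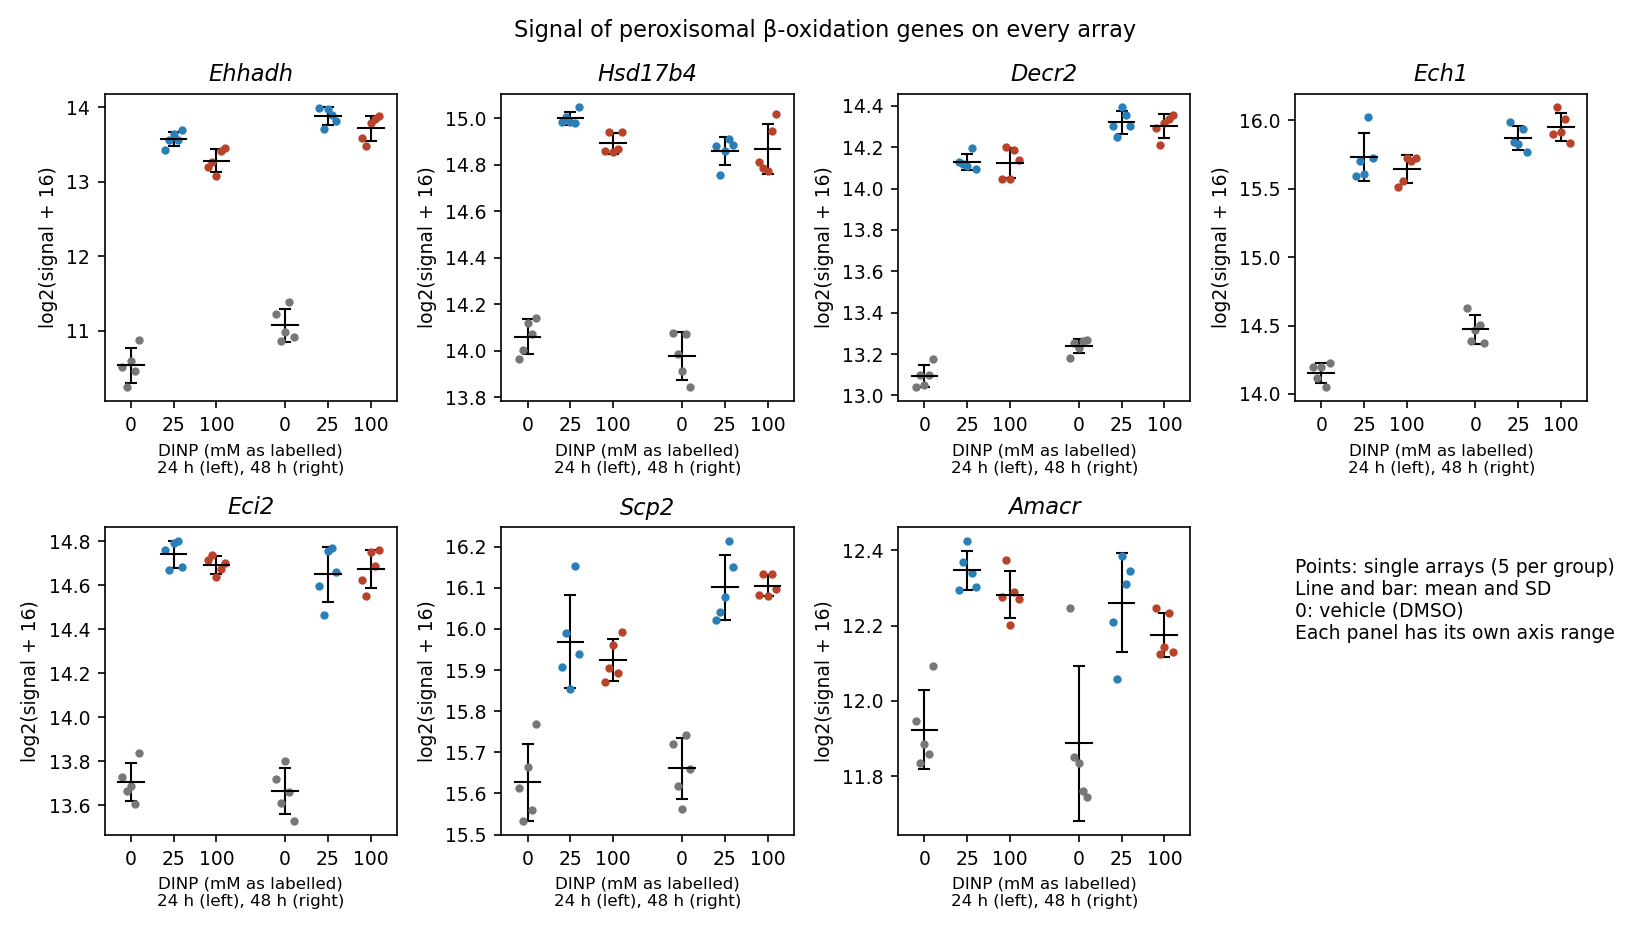
Log2(signal + 16) of the 7 genes on each of the 30 arrays, by DINP dose in mM as labelled (0 is the vehicle), with 24 h on the left and 48 h on the right of each panel. Points are single arrays and the line and bar are the mean and SD of 5. Treated arrays stand above the vehicle arrays of their time in every panel apart from Amacr at 48 h, where 1 vehicle array lies among the treated ones.

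Ehhadh, the L-bifunctional enzyme that carries out the hydratase and dehydrogenase steps, gave the largest change of the 7. At 24 h its signal was 11032, 12052, 12737, 12077 and 13225 in the 25 mM cultures and 9388, 9821, 8628, 10879 and 11223 in the 100 mM cultures, against 1442, 1189, 1522, 1386 and 1857 in the vehicle cultures. At 48 h the arrays read 16234, 13316, 16151, 15288 and 14451 at 25 mM and 12266, 11466, 14106, 14696 and 15097 at 100 mM, against 2374, 1840.0, 2003, 2647 and 1906 in vehicle. The lowest treated array was more than 4 times the highest vehicle array at each time. The log2 difference from vehicle was 3.05 ± 0.10 (SE) at 25 mM and 24 h, or 8.26-fold (95% interval 7.15 to 9.54, adjusted p = 1.01e-20). It was 6.73-fold at 100 mM and 24 h, 7.01-fold at 25 mM and 48 h and 6.27-fold at 100 mM and 48 h (adjusted p = 2.23e-19, 1.23e-19 and 6.64e-19). By log2 difference Ehhadh ranked 2, 2, 3 and 2 among the 10604 tested genes in the 4 comparisons.

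Hsd17b4, the D-bifunctional enzyme that catalyses the same steps with the opposite stereochemistry and serves the branched-chain and bile acid substrates, rose by just under 2-fold. At 24 h the arrays gave 32368, 32913, 32379, 32349.8 and 33827 at 25 mM and 29707, 31466, 29606, 29869.5 and 31452 at 100 mM, against 15982, 16392, 17777, 17182 and 18078 in vehicle. At 48 h they gave 30198, 27663, 29724, 30769.9 and 30239 at 25 mM and 28773, 28251, 28000.5, 31547 and 33214 at 100 mM, against 17283, 16209, 15395, 17229 and 14671 in vehicle. The lowest treated array of either time, 27663, stood far above the highest vehicle array, 18078. The folds were 1.92 and 1.78 at 24 h and 1.84 and 1.85 at 48 h, in the order 25 and 100 mM, with adjusted p between 1.04e-15 and 3.18e-14.

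Ech1, the dienoyl-CoA isomerase that shifts a pair of double bonds along the chain and is found in peroxisomes and mitochondria, had the next largest folds. Its 24 h signals were 49344, 53269.8, 49845, 66718 and 54113 at 25 mM and 46872, 48260.1, 54084, 53397 and 54108 at 100 mM, against 18805, 17707, 18714, 16905 and 19122 in vehicle. Its 48 h signals were 65093, 58739.6, 58019, 62709 and 55821 at 25 mM and 61036, 69989, 61875, 66076 and 58516 at 100 mM, against 25337, 21408, 22610.0, 23222 and 21194 in vehicle. One 25 mM array at 24 h stood above the other 4 of its group, and all treated arrays stood far above the vehicle arrays. The log2 difference was 1.57 ± 0.068 (SE), or 2.98-fold, at 25 mM and 24 h, 2.81-fold at 100 mM and 24 h, 2.64-fold at 25 mM and 48 h and 2.79-fold at 100 mM and 48 h (adjusted p = 4.24e-18, 2.12e-17, 7.22e-17 and 1.93e-17). Its rank among all tested genes was 19, 22, 28 and 20.

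Decr2, the peroxisomal 2,4-dienoyl-CoA reductase, and Eci2, the enoyl-CoA isomerase, each stood close to 2-fold above vehicle in all 4 comparisons. Decr2 averaged 17910.2 ± 486 at 25 mM and 17852 ± 919.6 at 100 mM after 24 h, against 8722 ± 330.2 in vehicle, and 20463 ± 784 and 20185 ± 788 after 48 h, against 9649 ± 236 in vehicle (SD, n = 5 each). The lowest treated Decr2 array read 16895 at 24 h, above the highest vehicle array of 9228. Its folds were 2.05 and 2.04 at 24 h and 2.12 and 2.09 at 48 h for 25 and 100 mM, and the SE of 0.043 on the log2 scale was the smallest of the 7. Eci2 ranged over 26053 to 28505 at 25 mM and 25451 to 27332 at 100 mM after 24 h, against 12436 to 14637 in vehicle. After 48 h it ranged over 22622 to 27961 at 25 mM and 24016 to 27708 at 100 mM, against 11805 to 14263 in vehicle. Its folds were 2.05 and 1.98 at 24 h and 1.98 and 2.02 at 48 h for 25 and 100 mM. Adjusted p lay between 3.52e-19 and 3.06e-18 for Decr2 and between 1.62e-15 and 8.27e-15 for Eci2.

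Scp2 codes for sterol carrier protein and, from the same gene, for the longer form with thiolase activity, and the labels do not say which form each probe set detects. Its brighter probe set averaged 64290.4 ± 5225 at 25 mM and 62225 ± 2219 at 100 mM after 24 h, against 50673 ± 3331 in vehicle, and 70364 ± 3946 and 70503 ± 1276 after 48 h, against 51845 ± 2646 in vehicle (SD, n = 5 each). The groups did not overlap, though the gap was narrow: at 24 h the lowest treated array was 59252 and the highest vehicle array 55767. The folds of this probe set were 1.27 and 1.23 at 24 h (adjusted p = 6.3e-06 and 6.47e-05) and 1.36 and 1.36 at 48 h (adjusted p = 4.82e-08 and 4.85e-08) for 25 and 100 mM. The second probe set was also called higher in all 4 comparisons, with folds of 1.21 and 1.16 at 24 h and 1.31 and 1.28 at 48 h and adjusted p of at most 0.00658.

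Amacr, the racemase that prepares branched-chain substrates and bile acid intermediates for the spiral, showed folds of the same small size. At 24 h its signals were 5014, 5274, 5482, 5172 and 5042 at 25 mM and 4940.4, 5295, 4691, 4989 and 4925 at 100 mM, against 3933, 3637, 3765, 3698 and 4356 in vehicle. At 48 h they were 4717, 4247, 5332, 5065 and 5184 at 25 mM and 4845, 4453, 4502, 4798 and 4463 at 100 mM, against 4842, 3674, 3638, 3451 and 3413 in vehicle. The first vehicle array at 48 h, at 4842, lay within the treated range, while the other 4 vehicle arrays lay below every treated array. The folds were 1.34 and 1.28 at 24 h (adjusted p = 9.79e-05 and 0.000943) and 1.30 and 1.22 at 48 h (adjusted p = 0.000373 and 0.00669) for 25 and 100 mM. Without that vehicle array the log2 differences at 48 h were 0.46 at 25 mM (adjusted p = 1.42e-06) and 0.38 at 100 mM (adjusted p = 4.76e-05), against 0.37 and 0.29 with it.

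**Figure D2:**
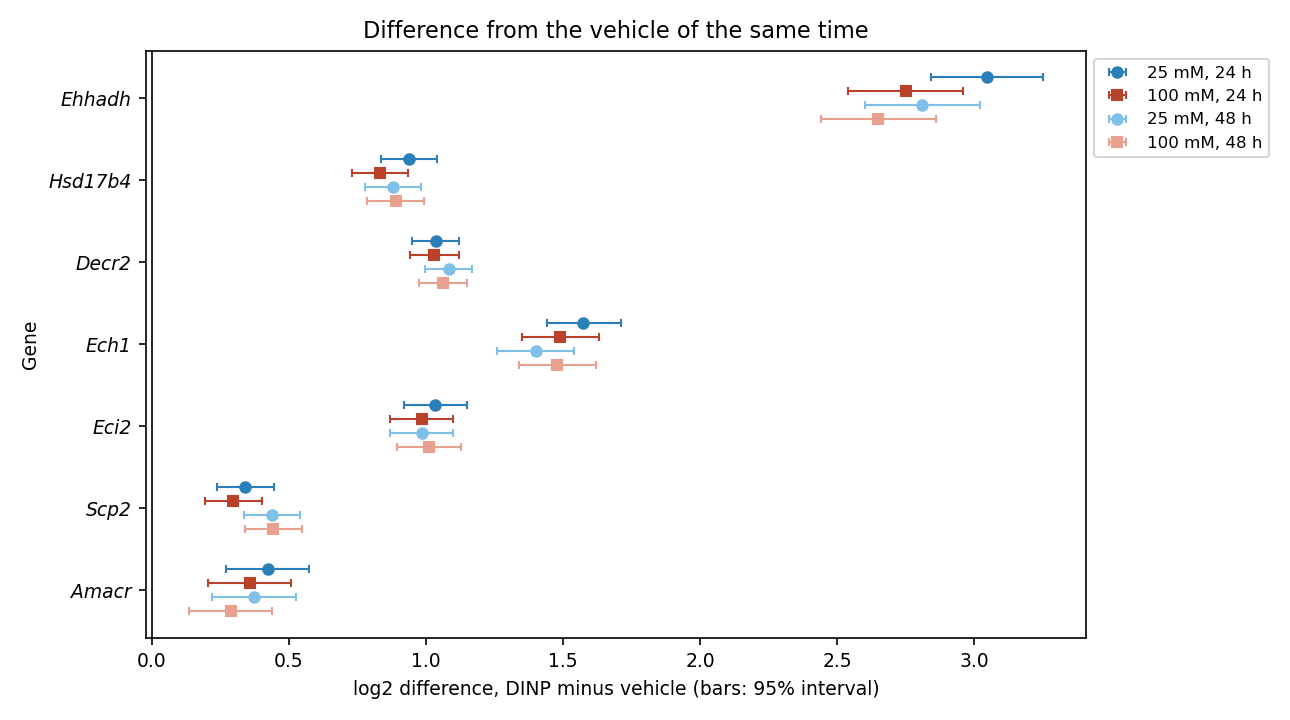
Log2 difference of each gene from the vehicle of the same time, DINP minus vehicle, with 95% intervals from limma, for 25 and 100 mM at 24 and 48 h. Ehhadh lies between 2.65 and 3.05, Ech1 between 1.40 and 1.57, Decr2, Eci2 and Hsd17b4 between 0.83 and 1.08, and Scp2 and Amacr between 0.29 and 0.44.

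The size of the response differed between the genes. The difference in log2 signal between a pair of genes was taken within each array and compared between treated and vehicle arrays with a 2-sided exact permutation test, over all 21 pairs in 4 comparisons. This set of 84 tests was added after the values above were known, was adjusted by Benjamini-Hochberg over the 84, and cannot give a p below 0.0079. The change in Ehhadh exceeded that in Ech1, the next gene, by 1.47 ± 0.12 (SE) at 25 mM and 24 h and by 1.17 ± 0.13 at 100 mM and 48 h on the log2 scale (adjusted p = 0.0098 in each). The change in Ech1 exceeded that in Scp2 by between 0.96 and 1.23 (adjusted p = 0.0098 in each of 4). Decr2 rose by less than Ech1, with a difference of -0.54 at 25 mM and 24 h (adjusted p = 0.0098) and -0.32 at 25 mM and 48 h (adjusted p = 0.019). Hsd17b4 rose by slightly less than Decr2 in all 4 comparisons, with differences between -0.20 and -0.10 and adjusted p between 0.0098 and 0.046. In all, 18, 19, 18 and 18 of 21 pairs had an adjusted p below 0.05. The pairs that did not were Decr2 with Eci2 and Scp2 with Amacr in all 4 comparisons, and Hsd17b4 with Eci2 in 3 of them, at -0.09 (adjusted p = 0.16), -0.11 (adjusted p = 0.16) and -0.12 (adjusted p = 0.14). Decr2 minus Eci2 lay between 0.002 and 0.096 with SEs of up to 0.067, and Scp2 minus Amacr between -0.08 and 0.16 with SEs of up to 0.10. The order by fold was Ehhadh, Ech1, then Decr2, Eci2 and Hsd17b4, then Scp2 and Amacr, with Decr2 and Eci2, and Scp2 and Amacr, not separated in any comparison. Eci2 and Hsd17b4 were separated only at 100 mM and 24 h (adjusted p = 0.019).

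A set of 4 pairs put a peroxisomal enzyme against its mitochondrial counterpart or, for Ehhadh, also against the other bifunctional enzyme, in a separate family of 16 exact permutation tests with Benjamini-Hochberg adjustment over the 16, of which 14 were below 0.05. The rise in Ehhadh exceeded that in Hsd17b4 by 2.11 ± 0.091 (SE) at 25 mM and 24 h, 1.92 at 100 mM and 24 h, 1.93 at 25 mM and 48 h and 1.76 at 100 mM and 48 h on the log2 scale (adjusted p = 0.0098 in each). Against Hadha, the mitochondrial trifunctional protein's hydratase and dehydrogenase subunit, the excess of Ehhadh was 2.19, 2.01, 1.92 and 1.78 in the same order (adjusted p = 0.0098 in each). The rise in Decr2 exceeded that in Decr1, the mitochondrial dienoyl-CoA reductase, by 0.37, 0.37 and 0.36 in the first 3 comparisons (adjusted p = 0.0098) and by 0.29 at 100 mM and 48 h (adjusted p = 0.018, arrays overlapping). Eci2 minus Eci1, the mitochondrial enoyl-CoA isomerase, had the opposite sign. It was -0.22 at 25 mM and -0.29 at 100 mM after 24 h (adjusted p = 0.0098 in each), and -0.06 and -0.05 after 48 h (adjusted p = 0.61 in each).

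**Figure D3:**
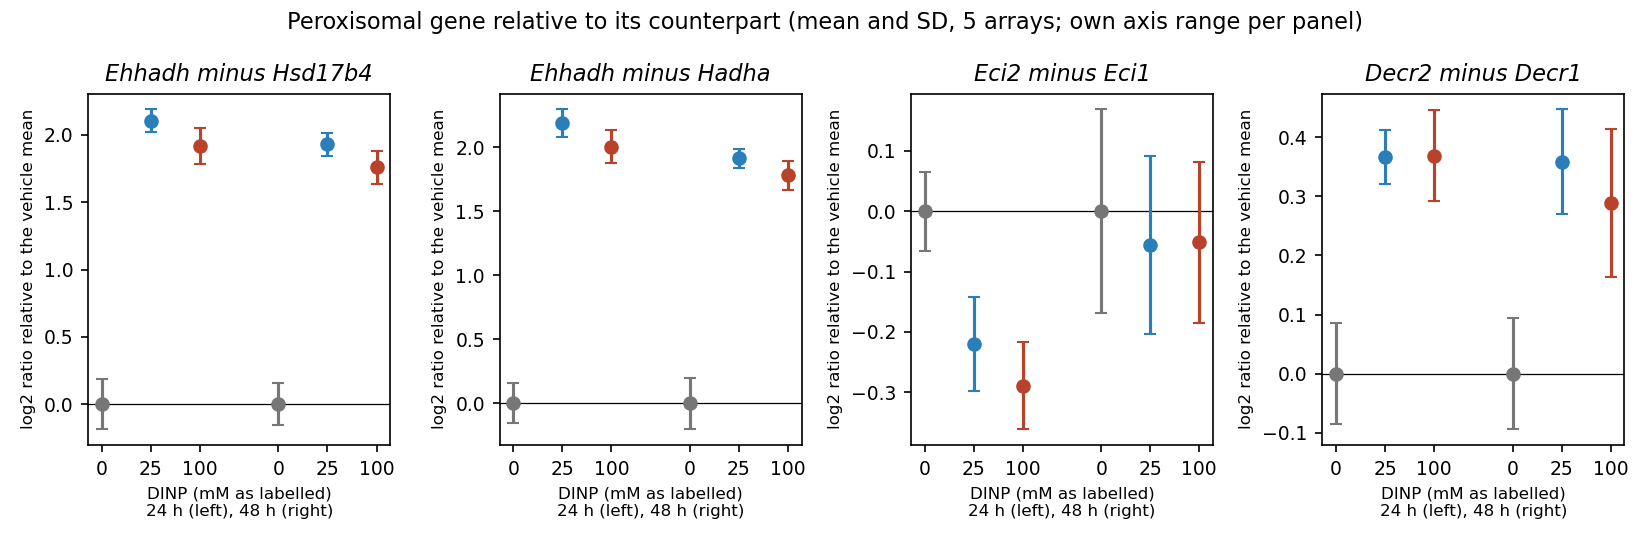
Within-array log2 ratio of a peroxisomal gene to its counterpart, relative to the mean ratio of the vehicle arrays of the same time, by DINP dose in mM as labelled (0 is the vehicle), as mean and SD of 5 arrays with 24 h on the left and 48 h on the right of each panel. Ratios of Ehhadh stand 1.76 to 2.19 above vehicle, Decr2 over Decr1 stands 0.29 to 0.37 above it, and Eci2 over Eci1 is below vehicle at 24 h.

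A larger response at the higher dose was not detected in any of the 7 genes. Between 100 and 25 mM, limma called 0 of 7 genes at either time, against 0.00943% of all tested genes (1 gene) at 24 h and 0.00943% (1 gene) at 48 h. Between the doses the smallest unadjusted p-values of the 7 genes were those of Ehhadh and Hsd17b4 at 24 h. Ehhadh stood at -0.30 on the log2 scale for 100 minus 25 mM (95% interval -0.50 to -0.09, unadjusted p = 0.0069, adjusted p = 1). Hsd17b4 stood at -0.11 (95% interval -0.21 to -0.004, unadjusted p = 0.042, adjusted p = 1). The share of all tested genes with unadjusted p below 0.05 was not counted, so these values have no background beside them. The 5 Hsd17b4 arrays at 100 mM and 24 h lay wholly below those at 25 mM, as did the arrays of 0.434% of all tested genes. At 48 h the Ehhadh difference between the doses was -0.16 (95% interval -0.37 to 0.05, adjusted p = 0.749). For Decr2 the intervals were -0.09 to 0.08 at 24 h and -0.11 to 0.07 at 48 h. For Amacr, with the widest spread relative to its change, they were -0.22 to 0.09 at 24 h and -0.24 to 0.07 at 48 h.

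The response after 48 h was not shown to differ from that after 24 h for any member. The difference of effects, 48 minus 24 h, was called for 0 of 7 genes at 25 mM (0.358% of all tested genes) and 0 of 7 at 100 mM (0.113%). The smallest unadjusted p was that of Scp2 at 100 mM, at 0.15 on the log2 scale (95% interval 0.001 to 0.29, unadjusted p = 0.048, adjusted p = 0.785). At 25 mM this difference was -0.24 for Ehhadh (95% interval -0.53 to 0.06, adjusted p = 0.724), and -0.17 for Ech1 (95% interval -0.37 to 0.02, adjusted p = 0.671).

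**Figure D4:**
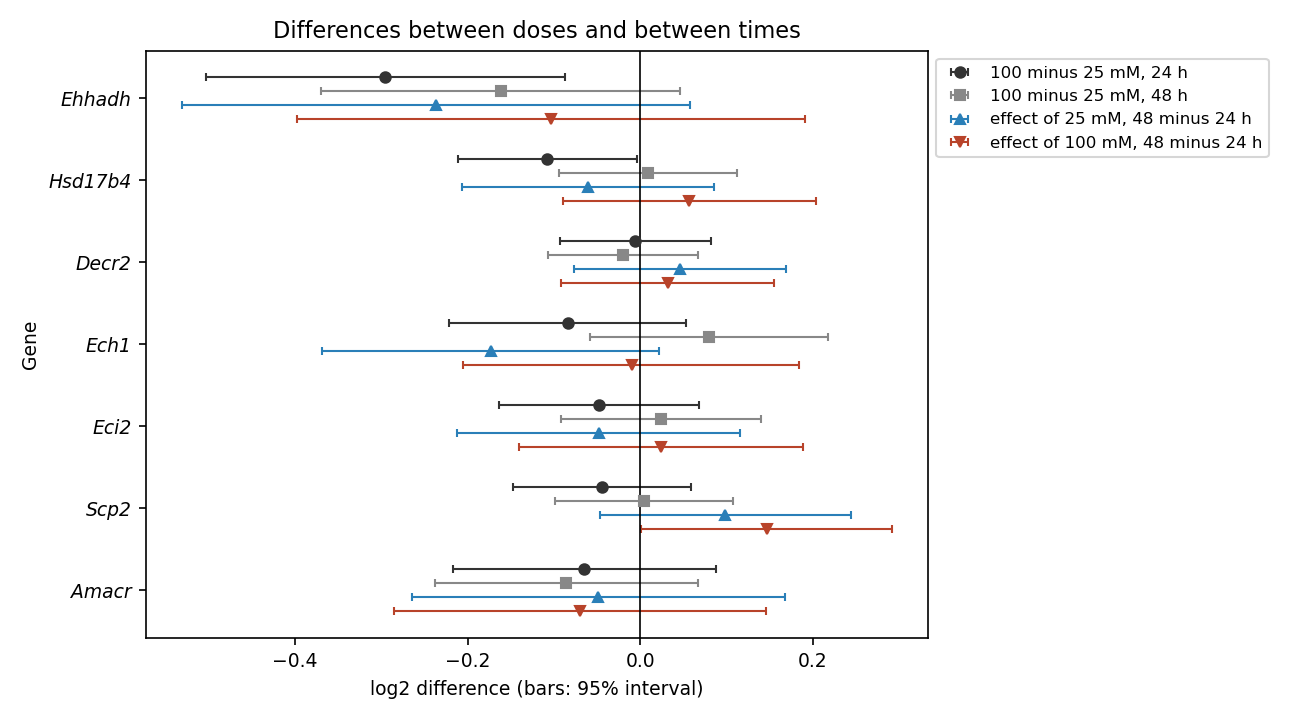
Log2 difference with 95% interval between 100 and 25 mM at each time, and between the effects at 48 and 24 h of each dose, for the 7 genes. Ehhadh at 24 h lies farthest from 0 between doses, at -0.30, and no difference had an adjusted p below 0.05.

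In the vehicle cultures, 3 of 7 genes were higher at 48 than at 24 h and 0 lower. Of all 10604 tested genes, 1006 were called higher and 840 lower, which is 17.4% in one direction or the other. Ehhadh averaged 2154 ± 344 at 48 h and 1479 ± 245 at 24 h (SD, n = 5 each), a 1.45-fold difference (adjusted p = 0.000368), although 1 array at 24 h overlapped the 48 h range. Ech1 was 1.24-fold higher at 48 h (adjusted p = 0.00133) and Decr2 1.11-fold higher (adjusted p = 0.0181), with no overlap between the times for these genes, as for 6.84% of all tested genes. The Decr2 call was lost when each array was centred on its median (adjusted p = 0.137), when only the compared groups were fitted (adjusted p = 0.0876), and without vehicle replicate 1 (adjusted p = 0.0517) or 3 (adjusted p = 0.0504) at 24 h. The log2 differences of Hsd17b4, Eci2, Scp2 and Amacr were -0.08, -0.04, 0.03 and -0.04, and none was called. Some markers of other cell types moved in the same comparison: Epcam was higher at 48 h (0.47, adjusted p = 4.3e-05), and Lyve1 (-0.67, adjusted p = 0.0138), Fcgr2b (-0.56, adjusted p = 0.00282), C1qa (-0.46, adjusted p = 0.0248) and C1qb (-0.92, adjusted p = 0.00706) were lower. Not called were 1 of 2 tested cholangiocyte, 2 of 4 sinusoidal endothelial and 3 of 5 Kupffer and macrophage markers. No tested stellate and fibroblast, lymphocyte or erythroid marker was called. Of the 9 hepatocyte markers, Hnf4a (-0.31, adjusted p = 0.000707) and Fabp1 (-0.24, adjusted p = 0.039) were lower, and 7 were not called. The part of these markers in the vehicle result was not tested. Time in culture and time in DMSO cannot be told apart in this comparison.

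Of 39 listed genes of peroxisomal oxidation, import and related functions outside the 7, 34 had a probe set of their own and 33 were tested. The counts higher and lower were 18 and 2 at 25 mM and 24 h, 20 and 3 at 100 mM and 24 h, 21 and 2 at 25 mM and 48 h, and 22 and 1 at 100 mM and 48 h, with medians of 0.31, 0.37, 0.34 and 0.33 on the log2 scale. Over all 10604 tested genes the counts were 835 and 831, 800 and 744, 1037 and 1286, and 921 and 976. The medians of all tested genes were -0.03, -0.03, -0.03 and -0.06. Abcd3, a transporter that brings acyl-CoAs across the peroxisomal membrane, rose by 0.95, 0.89, 0.92 and 0.91 in these comparisons. Tysnd1, the protease that processes several enzymes of the spiral, rose by 0.47, 0.40, 0.67 and 0.54. Hacl1, the lyase of alpha-oxidation, rose by 1.83 at 25 mM and 24 h and by 1.80 at 100 mM and 48 h, more than any of the 7 genes except Ehhadh, and this gene was chosen after its values were seen. Among the branched-chain oxidases, Acox2 was lower at 100 mM and 24 h (-0.30, adjusted p = 0.00583) and not called in the other 3 comparisons, at -0.19, 0.18 and 0.16, and Acox3 was not called in any. Pex5 and Pex7, the receptors that import enzymes into the organelle, were not called in any of the 4 comparisons, and at 25 mM and 24 h stood at 0.18 ± 0.081 and -0.06 ± 0.067 (SE). Abcd2 was below the filter. Acaa1a and Acaa1b were not analysed here. Acsl4 was lower in all 4 comparisons, by -0.53 at 25 mM and 24 h, and Idi1 in 3, and both were named after their values were seen.

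**Figure D5:**
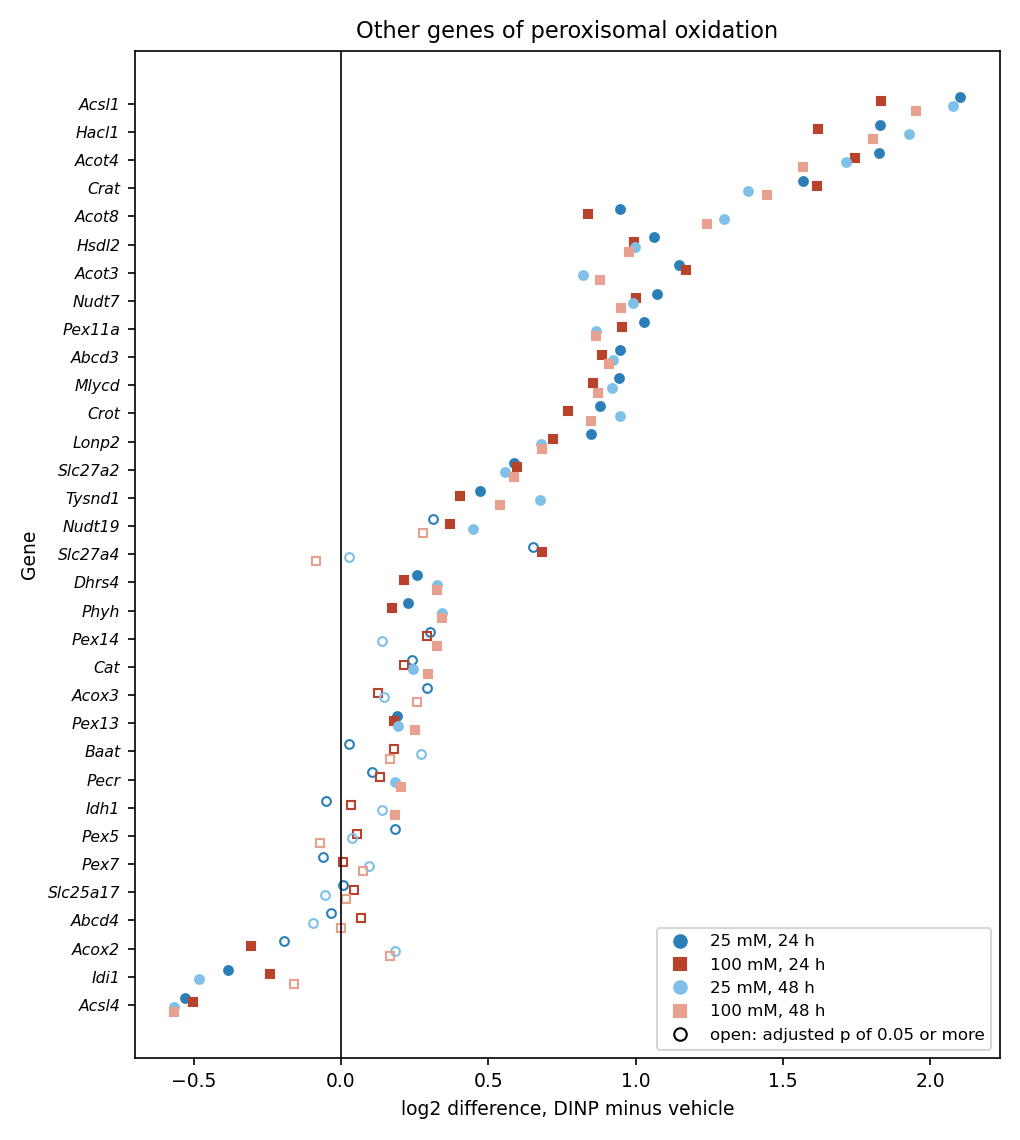
Log2 difference from the vehicle of the same time, DINP minus vehicle, for the 33 other tested genes of peroxisomal oxidation, import and related functions, at 25 and 100 mM and 24 and 48 h, ordered by their mean. Filled symbols have an adjusted p below 0.05 and open symbols do not. Acsl1 and Hacl1 lie at the top, and Acsl4 and Idi1 at the bottom.

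Most of the listed genes of mitochondrial beta-oxidation were higher as well. Of 18 tested counterpart genes, 17 were higher at 25 mM and 24 h, 17 at 100 mM and 24 h, 16 at 25 mM and 48 h and 17 at 100 mM and 48 h, and 0 were lower, with medians of 0.69, 0.65, 0.70 and 0.74 on the log2 scale. Over all tested genes, 7.87%, 7.54%, 9.78% and 8.69% were called higher, with medians of -0.03, -0.03, -0.03 and -0.06. At 25 mM and 24 h the log2 differences were 1.25 ± 0.058 for Eci1, 1.23 ± 0.061 for the thiolase Acaa2, 0.86 ± 0.057 for Hadha, 0.71 ± 0.043 for the trifunctional protein's thiolase subunit Hadhb and 0.67 ± 0.045 for Decr1 (SE). Echs1, the short-chain hydratase, was not called in any comparison, at -0.005 ± 0.053 at 25 mM and 24 h and 0.14 ± 0.053 at 100 mM and 48 h.

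Among 7 tested regulators, Ppargc1a, a coactivator of mitochondrial and peroxisomal genes, was lower in all 4 comparisons, at -0.75, -0.54, -0.72 and -0.69 on the log2 scale with adjusted p of at most 0.00331. It was named after its values were seen. The counts higher and lower over the 7 were 1 and 2, 1 and 1, 2 and 1, and 0 and 1. Over all 10604 tested genes they were 835 and 831, 800 and 744, 1037 and 1286, and 921 and 976 in the same order. Ppara itself lay below the filter on dim probe sets and was not tested. Rxra, its partner receptor, was not called in any comparison, with an SE of 0.33 that leaves wide intervals. Hnf4a, a hepatocyte transcription factor, was higher at 25 mM and 48 h (0.25, adjusted p = 0.00387) and not called in the other 3.

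Genes with the most similar profile over the 6 group means (30 arrays) were found by the root mean square distance of centred log2 signals. Nearest to Ehhadh were Cyp4a1 at 0.198, Pdk4 at 0.419, Acsl1 at 0.440, Cyp4a3 at 0.453 and Acot4 at 0.524. Nearest to Ech1 were Crat at 0.0844, Aig1 at 0.0878 and Angptl4 at 0.0968. For Decr2 they were Ephx2 at 0.0333, Acadm at 0.0727 and Slc34a2 at 0.0746, and for Eci2 they were Hsdl2 at 0.0327, Nudt7 at 0.0424 and Abcd3 at 0.0436. Cyp4a1, a fatty acid omega-hydroxylase whose probes may also bind related Cyp4a transcripts, differed from vehicle by 2.59, 2.51, 2.50 and 2.38 in the 4 comparisons.

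The labelled cell type was checked against its markers. The summed signal of 9 hepatocyte genes had group medians between 544500 and 600400, with Alb, Apoa1, Ttr, Cps1 and Serpina1 each at a median of at least 95770. Of these 9, Asgr1 and Fabp1 were called higher in all 4 comparisons with vehicle and Cyp2c11 lower in 3. Hnf4a was called higher at 25 mM and 48 h only. Alb, Apoa1, Ttr, Cps1 and Serpina1 were not called in any of the 4 comparisons. Lists for other liver cells had lower sums than the hepatocyte list. Outside the cholangiocyte list, their brightest genes were Fcgr2b and Cd68, with median signals of 1358 and 1227. Sums over single arrays ran from 2539 to 3884 for 7 stellate and fibroblast genes, 2432 to 4449 for 6 Kupffer and macrophage genes, 2114 to 4046 for 5 sinusoidal endothelial genes, 252.3 to 1093 for 4 lymphocyte genes and 287.7 to 1001 for 2 erythroid genes. The 4 cholangiocyte genes summed higher, with Epcam at a median signal of 9841, while Krt7, Spp1 and Krt19 had medians of 22.1, 36.6 and 280.9. Their sum was 7800 to 9470 at 25 mM, 8600 to 9319 at 100 mM and 8524 to 10570 in vehicle at 24 h. It was 8810 to 11710 at 25 mM, 10440 to 12650 at 100 mM and 11850 to 14310 in vehicle at 48 h, and Epcam was lower at both doses at that time (-0.35 and -0.22 on the log2 scale, adjusted p = 0.000796 and 0.0422). Of the tested markers of other cells, C1qb, of macrophages, was higher at 48 h at 25 mM (0.79, adjusted p = 0.0158) and at 100 mM (0.94, adjusted p = 0.00473). Acta2, of stellate cells and fibroblasts, was lower at 100 mM and 48 h (-0.52, adjusted p = 0.00881), and Hbb, of erythroid cells, was higher at 100 mM and 24 h (1.73, adjusted p = 0.0228). No other tested marker of these cells was called against vehicle. The part of these markers in the results on the 7 genes was not tested. Array scaling was even, with a 2% trimmed mean signal between 1500.65 and 1500.76 on all 30 arrays, and correlations between arrays ran from 0.947 to 0.977.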

How the data were processed

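Total RNA of 30 cultures was hybridised to 1-colour Affymetrix rat arrays. The table the authors deposited holds 1 linear intensity for each probe set on each array, without detection calls. The submitters' processing notes name MAS5 as the tool, and no version of it is stated there. Each array had been scaled to one trimmed mean before deposit, as tested on the values. The number of arrays, 5 per group, limits the precision.

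From these, log2(signal + 16) was computed, so folds understate changes of dim genes. The 57 control probe sets were dropped and those at or above the 40th percentile of mean log2 signal were tested, which left 18625. Symbols came from the platform annotation (20826 probe sets with 1 symbol, 436 with several, 9780 unnamed here), updated through the Entrez ID for 20758 of them from a RefSeq table of GRCr8. Probe sets of several symbols were not named. The brightest tested probe set stood for its gene (10604 genes). Probes of close relatives, as in the Cyp4a and Acot families, may bind each other's transcripts. The files' genome build is not given in the sources used here, and only the promoter windows carry coordinates.

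The main test was limma 3.58.1 in R 4.3.3, with 1 fit of 6 groups (24 residual degrees of freedom), a variance trend, and Benjamini-Hochberg adjustment within each comparison over all tested probe sets, threshold 0.05. The fit was tested on simulated data. Gene pairs were compared by exact permutation tests. Samples were grouped by dose and time in the labels. Replicate numbers follow accession order, since the labels carry none, and match the rounds of array numbers. Alternatives were other pseudocounts, no filter, quantile or median scaling, no trend, only the compared groups, array weights, rounds of array numbers as a block, the mean over probe sets, and leaving out each array.

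All members were named, with core oxidases, import receptors, Tysnd1 and Abcd transporters from the wider peroxisomal list, Hadha, Hadhb, Decr1, Eci1, Echs1 and Acaa2 from the mitochondrial list, Ppara, Rxra and Hnf4a from the regulators, and the 5 nearest profiles of Ehhadh and 3 of any other member that changed by at least 1 log2 unit. The members and lists were chosen with earlier results of these data known.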

Additional observations from a re-analysis of the deposited data

Results flagged for a closer look

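Amacr in the first vehicle array at 48 h stood apart from the rest of its group. Its log2 signal was 12.246, against 11.744 to 11.850 in the other 4 vehicle arrays, and its gap to the nearest of them was 0.789 of the range of the group, above the limit of 0.710 for 5 samples. Chance alone passes that limit in about 1 in 20 groups, and 48 groups of arrays were looked at. Amacr was called higher at 48 h with and without this array.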

How the results depend on the processing

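All 560 values of the 7 genes under the alternatives in the 4 comparisons with vehicle kept their direction and stayed below an adjusted p of 0.05, and 7 of 7 genes were called in each. The largest change moved little: Ehhadh at 25 mM and 24 h lay between 2.97 and 3.13 on the log2 scale over the alternatives. A small change moved more for its size: Scp2 at 100 mM and 48 h lay between 0.315 and 0.549, against 0.445 in the main fit. Amacr at 100 mM and 48 h came nearest to the threshold, between 0.25 and 0.39 with an adjusted p of up to 0.0498. The dose and time differences stayed at 0 of 7 genes called under every alternative run. Genes called higher over the array ranged from 682 to 988, 634 to 994, 773 to 1100 and 777 to 1288 in the 4 comparisons. The median log2 value of all probe sets was 8.571 at 100 mM and 8.675 in vehicle at 48 h, so median centring shifts that comparison by over 0.1, and the 7 genes stayed called. Of the vehicle cultures between times, 2 to 3 of 7 genes were called. The 16 pair ratios against counterparts kept their calls. The labels carry no replicate numbers, but array numbers in the titles run in 5 rounds of the 6 groups. With the round as a replicate block, 7 of 7 genes were called in each comparison with vehicle, 0 of 7 between doses or times and 3 of 7 between vehicle times. The counts of genes called higher over the array stayed within the ranges above. The labels do not call a round a batch. The absence of detection calls leaves no measured background for dim genes.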
